A study of Mus musculus with 4 samples.

Results

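The genes described here encode the V(D)J recombinase and the machinery that rejoins the DNA ends it makes, in Ebf1-deficient mouse fetal liver progenitors with and without the microRNA miR-195. The members were the 10 genes Rag1, Rag2, Dntt, Xrcc5, Xrcc6, Prkdc, Dclre1c, Lig4, Xrcc4 and Nhej1, taken by name, and every array probe that carries one of these names was used. This gave 15 probes of the 39429 on the array, 5 for the 3 lymphoid-specific genes (Rag1, Rag2 and Dntt) and 10 for the 7 genes of general end joining. All 15 probes were well above background on all 4 arrays and all 15 were among the 23713 probes tested.

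Lineage-negative (Lin-) progenitors came from Ebf1-/- embryos at mid-gestation, so every array lacked EBF1, the early B cell transcription factor, and the labels place the cells around the pro-B stage. The cells received either the empty retrovirus MDH1-PGK-GFP (EMPTY) or the same vector with a genomic segment around the miR-195 gene (Mir195), and were cultured, by the methods' default for a week, on OP9 stromal cells with SCF, IL-7 and Flt3 ligand at 10 ng/mL each. The methods put the transgenic mice on the C57BL/6 background. Any sort for infected cells and whether the replicates came from separate embryos or cultures are not given in the sources used here, so p-values measure the spread between these samples, which may be technical. Each virus had 2 single-colour Agilent arrays, made from about 100 ng of total RNA, and all 4 arrays lay on 1 slide with the EMPTY arrays beside each other and the Mir195 arrays beside each other, so that a slide position effect cannot be told apart from the virus. The miR-195 cloned into the vector was amplified from a human leukaemia line, RS4;11. The array carries no probe named for miR-195, so the transduction itself was not measured on it.

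V(D)J recombination assembles the antigen receptor genes of B and T lymphocytes from separate segments. The RAG1 and RAG2 proteins together bind the recombination signals and cut the DNA, and the ends are then joined by the non-homologous end joining that every cell uses to repair breaks. In that pathway the Ku proteins hold the ends, DNA-PKcs and Artemis open the hairpins that the RAG proteins leave, TdT adds bases without a template in lymphoid cells, and DNA ligase IV with XRCC4 and XLF seals the joint. Rag1, Rag2 and Dntt are first transcribed in lymphoid progenitors, before B or T commitment is complete.

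The mature sequence of the microRNA is shown because it is what differs between the viruses. It is given from RefSeq (GRCm38.p6, mouse mmu-miR-195a-5p, chr11:70235062-70235082, plus strand), with the seed, bases 2 to 8, in capitals.
mmu-miR-195a-5p: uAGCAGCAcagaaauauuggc

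The 250 bases before the annotated start of the 3 lymphoid-specific genes are shown because Rag1 and Rag2 differed one way between the viruses and Dntt the other. They were read from the RefSeq promoter table (GRCm38.p6), which matched 9 of the 10 members. The windows were searched on both strands for the letters GTAAACA, which forkhead factors such as FOXO1 bind, for CAGGTG, an E-box that E2A binds, for TGGGAA, the core of Ikaros sites, for CCAAT, the box that NF-Y binds, and for TATAAA, the TATA box. The same windows were also searched for CCGGAA, the core of Ets sites, for CCCNNGGG, a pattern of EBF sites, and for GGGCGG, the GC box. Matches to the letters of the forkhead, E2A, Ikaros, NF-Y and TATA sites are in capitals.
Rag1 upstream (chr2:101649533-101649782, minus strand): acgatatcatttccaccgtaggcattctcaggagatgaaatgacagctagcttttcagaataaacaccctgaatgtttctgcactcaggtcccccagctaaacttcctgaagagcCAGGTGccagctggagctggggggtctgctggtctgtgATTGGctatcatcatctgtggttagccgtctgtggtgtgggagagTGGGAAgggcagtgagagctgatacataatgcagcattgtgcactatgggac
Rag2 upstream (chr2:101624462-101624711, plus strand): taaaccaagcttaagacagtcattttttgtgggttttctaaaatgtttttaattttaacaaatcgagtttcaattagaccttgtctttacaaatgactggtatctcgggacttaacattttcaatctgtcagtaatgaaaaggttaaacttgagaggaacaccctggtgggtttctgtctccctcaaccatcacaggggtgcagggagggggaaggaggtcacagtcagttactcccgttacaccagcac
Dntt upstream (chr19:41029025-41029274, plus strand): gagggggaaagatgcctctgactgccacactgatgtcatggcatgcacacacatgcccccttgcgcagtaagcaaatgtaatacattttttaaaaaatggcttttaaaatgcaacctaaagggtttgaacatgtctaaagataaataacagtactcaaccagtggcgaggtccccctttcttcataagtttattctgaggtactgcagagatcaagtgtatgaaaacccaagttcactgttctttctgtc

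The Rag1 window held 3 matches, none overlapping another. CAGGTG lay 135 to 130 bases before the start, the reverse of CCAAT lay 97 to 93 bases before it, and TGGGAA lay 52 to 47 bases before it. Of all 32851 promoters of the same length in the table, 17.22% held CAGGTG, 33.85% CCAAT and 21.59% TGGGAA, so none of these matches is rare. The Rag2 and Dntt windows held none of the 8 sets of letters, and none of the 3 lymphoid-specific windows held GTAAACA, which 3.17% of all promoters held. Base composition overlapped between the classes. The lymphoid-specific windows had 41.2% to 50.8% G and C, and 0 of 3 held a GC box, whereas the windows of the general genes had 44.8% to 70.0% G and C, and 5 of the 6 general genes with an entry held a GC box (32.74% of all promoters).

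The leading 30 of the 60 bases of the Rag1, Rag2 and Dntt probes are shown, as the scanner files list them, because the findings on Rag1 and Rag2 rest on separate probes of the same transcript.
Rag1 probe A_51_P232411: agttgtttgatgcatgtgtatgccattaga
Rag1 probe A_55_P2043297: ggtgtcataaatttttcaataatgaagtta
Rag2 probe A_52_P259521: cttaaagacagttgtcatctctggaaatag
Rag2 probe A_66_P105784: aagatgacgagtctgtaaccggctactgga
Dntt probe A_51_P516085: aagcgcatcaatgcccacctgactcctgtg

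The longest run of bases that the whole 60-base probes shared was 5 between the Rag1 probes and 6 between the Rag2 probes, so each pair read different stretches of its transcript.

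The values below are log2 processed signals from which the array's own 75th percentile was subtracted, so that 0 is that percentile and differences between probes carry no meaning. Rag1, the catalytic part of the recombinase, was higher in both Mir195 arrays than in both EMPTY arrays on each of its probes. On probe A_51_P232411 it stood at -2.20 and -2.24 in EMPTY and at -1.87 and -1.54 in Mir195, and on probe A_55_P2043297 at -6.01 and -5.67 against -5.17 and -5.14. The log2 fold changes of Mir195 over EMPTY were 0.52 (SE 0.16, n = 2 arrays per virus) and 0.68 (SE 0.16), and the mean of the probes was a 1.51-fold higher level. The limma test, adjusted over all tested probes by the Benjamini-Hochberg method, gave adjusted p = 0.536 and 0.530, so neither probe was called. The second probe was dim, at 1.98 to 2.18 times the local background, and its fold change was 0.42 with another background correction (normexp) and 0.36 in the authors' own table. The first probe, at 7.50 to 9.58 times the background, gave 0.45 and 0.46 in the same settings.

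Rag2, the partner of RAG1 that reads the histone mark at the signal, was after scaling also higher in both Mir195 arrays on each probe, by less. Probe A_66_P105784 stood at -0.30 and -0.35 in EMPTY and at -0.06 and 0.06 in Mir195, a log2 fold change of 0.32 (SE 0.12, limma adjusted p = 0.590). Probe A_52_P259521 stood at -5.29 and -4.95 in EMPTY and at -4.82 and -4.82 in Mir195, a log2 fold change of 0.30 (SE 0.16, limma adjusted p = 0.739). It was dim, at 2.43 and 2.52 times the local background in EMPTY and 2.22 and 2.29 in Mir195. Before scaling, its signals overlapped, at 29.0 and 33.5 in EMPTY and 32.0 and 32.7 in Mir195. Those of probe A_66_P105784 overlapped too, at 918 and 810 against 867 and 963. The signal used for scaling was 1127 and 1030 in EMPTY and 902 and 922 in Mir195. The lack of overlap for Rag2 thus arose only with scaling. Probe A_52_P259521 is printed on 10 spots, which lets the error within an array be seen. Its spots had an SD of 0.16 to 0.17 within each array, and their lowest and highest values, -5.52 to -4.96 and -5.22 to -4.59 in EMPTY against -5.03 to -4.51 and -5.10 to -4.55 in Mir195, overlapped between the viruses. The gap between the nearest EMPTY and Mir195 array means was 0.13, and without EMPTY replicate 1 the probe's log2 fold change was 0.13. That SD is of single spots, so it measures neither the error of a 10-spot mean nor the spread between samples. Rag2 as the mean of its probes was 1.24-fold higher with Mir195.

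**Figure D1:**
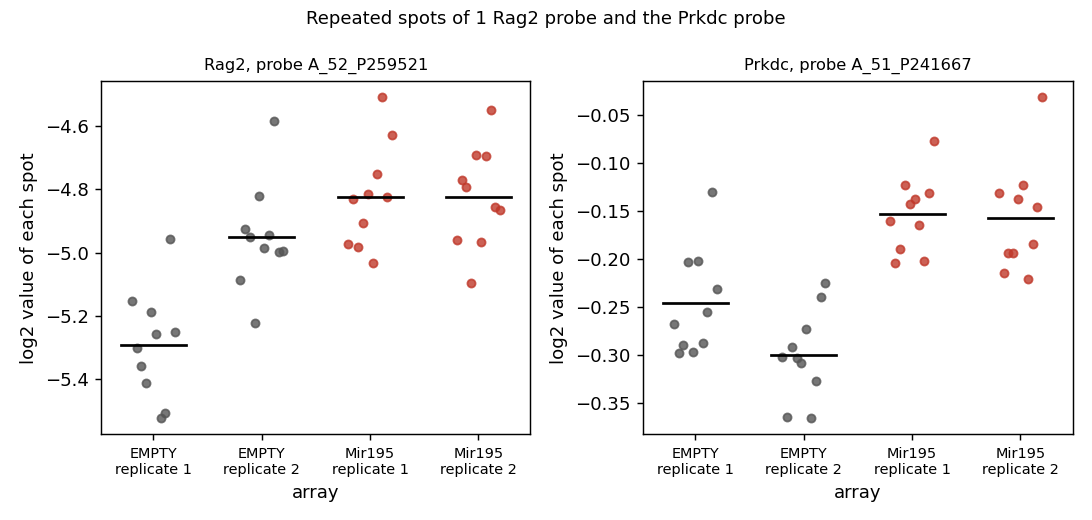
Each point is 1 of 10 spots of a probe on 1 array, in log2 units relative to the array's 75th percentile, and the black line is the array mean. The Rag2 spots overlapped between the viruses, with EMPTY replicate 1 lowest at a mean of -5.29, whereas the Prkdc array means lay at -0.25 and -0.30 in EMPTY and at -0.15 and -0.16 in Mir195.

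Dntt, which encodes TdT, went the other way. Its 1 probe, A_51_P516085, stood at 0.03 and 0.06 in EMPTY and at -0.77 and -0.23 in Mir195, so that both Mir195 arrays were below both EMPTY arrays but far from each other. The log2 fold change was -0.54 (SE 0.21), a 1.46-fold lower level with limma adjusted p = 0.605. Mir195 replicate 1 set much of its size, since the value was -0.27 with that array left out and -0.82 with Mir195 replicate 2 left out. In these bulk samples, fewer cells that express a gene and less RNA per cell cannot be told apart.

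Rag1 and Rag2 thus differed in direction from Dntt within the same arrays. The log2 difference between Rag1 and Dntt, set to a mean of 0 in EMPTY, was -0.06 and 0.06 in EMPTY and 1.33 and 0.96 in Mir195, which is a 2.21-fold higher Rag1 to Dntt ratio with Mir195. For Rag2 over Dntt the values were -0.06 and 0.06 against 1.096 and 0.61, a 1.81-fold higher ratio. Rag1 over Rag2 was 0.00 and 0.00 in EMPTY and 0.23 and 0.35 in Mir195, a 1.22-fold higher ratio. Such a ratio within an array does not depend on a scaling factor common to the whole array. It does depend on background handling, since the Rag1 and Rag2 means each include a dim probe. The dim Rag1 probe gave a log2 fold change of 0.68 here, 0.42 with normexp and 0.36 in the authors' table. These pairs were formed after the directions of the genes were seen, so the ratios are a description with no test.

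The genes that start end joining had no common direction. Xrcc5 encodes Ku80, which with Ku70 forms the ring that binds a broken end, and its probe A_51_P201661 stood at -0.82 and -1.04 in EMPTY and at -1.51 and -1.39 in Mir195. Neither Mir195 array reached either EMPTY array, and the log2 fold change was -0.52 (SE 0.14, limma adjusted p = 0.530), a 1.44-fold lower level. Xrcc6, which encodes Ku70, stood at 4.51 and 4.66 in EMPTY and at 4.53 and 4.36 in Mir195, so that the viruses overlapped, and its log2 fold change was -0.14 (SE 0.13, limma adjusted p = 0.879). The Xrcc6 over Xrcc5 ratio, again set to 0 in EMPTY, was -0.18 and 0.18 in EMPTY and 0.52 and 0.23 in Mir195, a 1.30-fold higher ratio whose EMPTY and Mir195 arrays came within 0.05 of each other.

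Prkdc encodes DNA-PKcs, the kinase that Ku recruits, and its 10-spot probe was steady. It stood at -0.25 and -0.30 in EMPTY and at -0.15 and -0.16 in Mir195, a log2 fold change of 0.12 (SE 0.11, limma adjusted p = 0.883) that came to 0.02 when each array was scaled to its median instead of its 75th percentile. The SD of its single spots within an array was 0.04 to 0.06, and the gap between the nearest EMPTY and Mir195 array means was 0.09. The spot SD does not measure the spread between samples. The 95% interval of the log2 fold change, -0.18 to 0.42, covered 0.

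Dclre1c, which encodes the Artemis nuclease that opens the hairpins, was higher in both Mir195 arrays than in both EMPTY arrays on all 4 of its probes. The probes for transcript variant 1, A_52_P462203 and A_55_P2129291, gave log2 fold changes of 0.47 (SE 0.17, limma adjusted p = 0.583) and 0.44 (SE 0.15, limma adjusted p = 0.567). On the former the arrays stood at -0.37 and -0.62 in EMPTY and at -0.19 and 0.13 in Mir195, and on the latter at 0.14 and -0.08 against 0.36 and 0.60. The probes for transcript variant 2, A_55_P2067131 and A_55_P2067116, gave 0.34 (SE 0.14) and 0.18 (SE 0.12), with limma adjusted p = 0.623 and 0.814. No run of more than 6 bases was shared by any pair of the 4 probes. Mir195 replicate 2 was the highest array on every Dclre1c probe, and EMPTY replicate 2 was the lowest on 3 of the 4. As the mean of its probes, Dclre1c was 1.28-fold higher with Mir195.

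The genes that finish the joint had log2 fold changes from -0.22 to 0.08. Lig4, the ligase, stood at -1.89 and -1.85 in EMPTY and at -1.96 and -2.22 in Mir195, so that the viruses did not overlap. Its log2 fold change was -0.22 (SE 0.14, limma adjusted p = 0.802), with a 95% interval of -0.59 to 0.15. That value came to -0.09 when Mir195 replicate 2 was left out and to -0.35 when Mir195 replicate 1 was. Xrcc4, its scaffold, stood at -0.71 and -0.79 against -0.70 and -0.63, a log2 fold change of 0.08 (SE 0.12, limma adjusted p = 0.926) in which the viruses were 0.0073 apart and which turned to -0.019 with median scaling. Nhej1, which encodes XLF, stood at -0.25 and -0.12 against -0.19 and -0.37 and overlapped, with a log2 fold change of -0.09 (SE 0.13, limma adjusted p = 0.920). The Dclre1c over Lig4 ratio was 0.10 and -0.10 in EMPTY and 0.34 and 0.82 in Mir195, a 1.495-fold higher ratio.

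**Figure D2:**
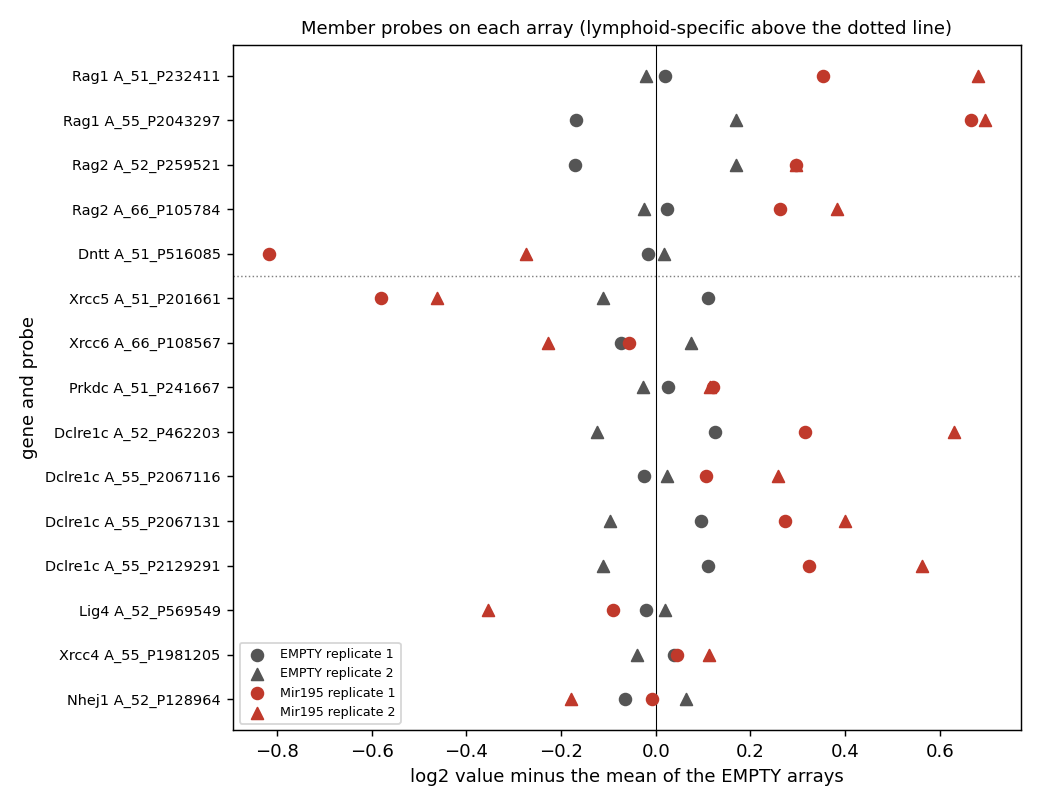
Each row is 1 member probe, with the log2 value on each of the 4 arrays minus the mean of the EMPTY arrays on the horizontal axis. EMPTY arrays are grey, Mir195 arrays red, replicate 1 a circle and replicate 2 a triangle. Rag1, Rag2 and Dclre1c lay to the right in both Mir195 arrays, and Dntt and Xrcc5 to the left.

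Counted over all members, no probe was called at an adjusted p of 0.05 by limma, and none of all 23713 tested probes was called either (0%), the lowest member adjusted p being 0.530. At an unadjusted p under 0.05 limma gave 6 of the 15 member probes, 5 of them higher with Mir195 (both Rag1 probes, 1 of Rag2 and both variant 1 probes of Dclre1c) and 1 lower (Xrcc5), where 8.34% of all tested probes had such a p, 6.25% as higher and 2.09% as lower. The arrays of the viruses did not overlap for 13 of the 15 member probes, 10 higher and 3 lower, where 37.7% of all tested probes did not overlap, 23.4% as higher and 14.4% as lower. Taken as 1 brightest probe per gene, 8 of the 10 members did not overlap, 5 higher and 3 lower, beside 37.7% of 19029 genes, 23.1% as higher and 14.7% as lower. Several of these probes share a transcript, so the 15 are not independent.

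The number of calls over all probes changed with the arrays used. Without Mir195 replicate 1, limma called 900 probes over the whole array, and the lowest member adjusted p was then 0.0909, for Rag1 probe A_51_P232411, so that still no member was called. In that fit the 1 remaining Mir195 array was assumed to vary as the EMPTY arrays did. Among all tested probes, the fold changes of Rag1 lay at the 94.0th and 96.4th percentiles, that of Dntt at percentile 2.7 and that of Xrcc5 at percentile 2.9. The median of all tested probes was 0.01.

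**Figure D3:**
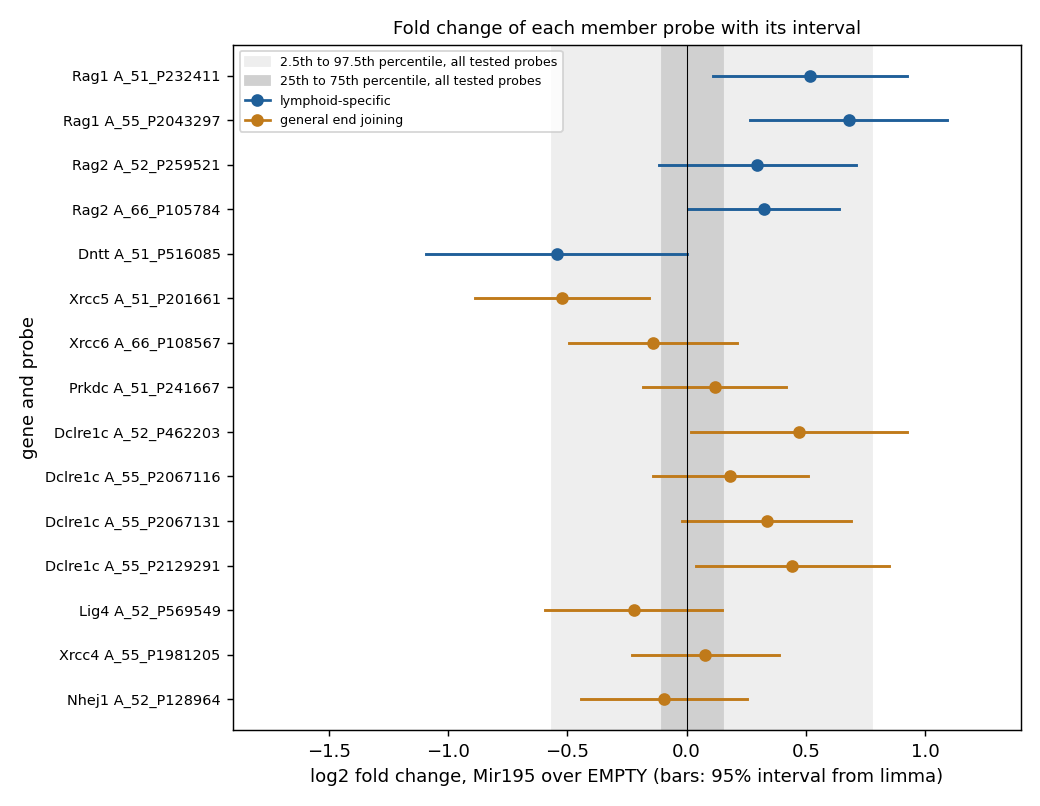
Points give the log2 fold change of Mir195 over EMPTY for each member probe and bars its 95% interval from limma, in blue for the lymphoid-specific and orange for the general genes. The bands show where the central share of all tested probes lay. The intervals of both Rag1 probes, 0.11 to 0.93 and 0.27 to 1.09, and of Xrcc5, -0.89 to -0.16, excluded 0 before adjustment, as did those of 3 more probes of Rag2 and Dclre1c, and every member point lay inside the wide band of all probes.

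Set as classes, the lymphoid-specific genes were not uniformly higher and the general genes had no common direction. Of the 3 lymphoid-specific genes, 2 were higher and 1 lower, with a median of 0.31 on the log2 scale and values from -0.54 to 0.60. Of the 7 general genes, 3 were higher and 4 lower (Xrcc4, among the higher, turned lower with median scaling), with a median of -0.09 and values from -0.52 to 0.36. The medians thus differed by 0.40, a value that rests on few genes. It was 0.55 without Dntt and 0.23 without Xrcc5 and Xrcc6. It was 0.52 when Mir195 replicate 1 was left out and 0.29 when Mir195 replicate 2 was. The range of the general genes lay across most of that of the lymphoid-specific genes, and no p is given for the difference because the members were chosen with results of these arrays known.

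The members' arrays stood further apart between the viruses than within them. The median absolute difference over the 15 probes was 0.13 between the EMPTY arrays and 0.15 between the Mir195 arrays, and 0.19 to 0.35 between arrays of different viruses. Over all tested probes the same differences were 0.15 and 0.19 within viruses and 0.095 to 0.23 between them. The pair EMPTY replicate 2 and Mir195 replicate 1 was the closest of all pairs over all probes, at 0.095, and stood 0.29 apart over the members. Mir195 replicate 2 was the highest array on 9 of the 15 member probes and EMPTY replicate 2 the lowest on 7.

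The other genes of recombination and repair were taken from lists of factors by role. No gene of any of these lists was called by limma. Of 11 genes for end processing and accessory steps, 2 did not overlap, among them Aptx, which clears failed ligations, higher by 0.08 on the log2 scale, and the list's median log2 fold change was -0.03. Of 13 genes for sensing and signalling breaks, 5 did not overlap, 4 higher and 1 lower, with a median of 0.11. The extremes among those 5 were Paxip1 (0.27, limma adjusted p = 0.743) and Trp53, the p53 gene (-0.26, limma adjusted p = 0.836). Trp53 stood at -0.18 and -0.17 in EMPTY and at -0.19 and -0.69 in Mir195, so its value came from Mir195 replicate 2.

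Alternative end joining, the back-up route, held 8 genes, of which 2 did not overlap. Polq, its polymerase, was at 0.24 (limma adjusted p = 0.726) and Parp1, which binds breaks early, at -0.04, with a list median of 0.01. Of 11 homologous recombination genes 2 did not overlap, Rad54l at 0.20 and Xrcc2 at -0.19, and the list median was 0.06. The 7 genes of RAG protein turnover and partners had 1 that did not overlap, Cdkn1b (the cell cycle inhibitor p27) at -0.16, and a median of 0.02. In these lists 14.3% to 38.5% of genes did not overlap, and the background over all genes was 37.7%.

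**Figure D4:**
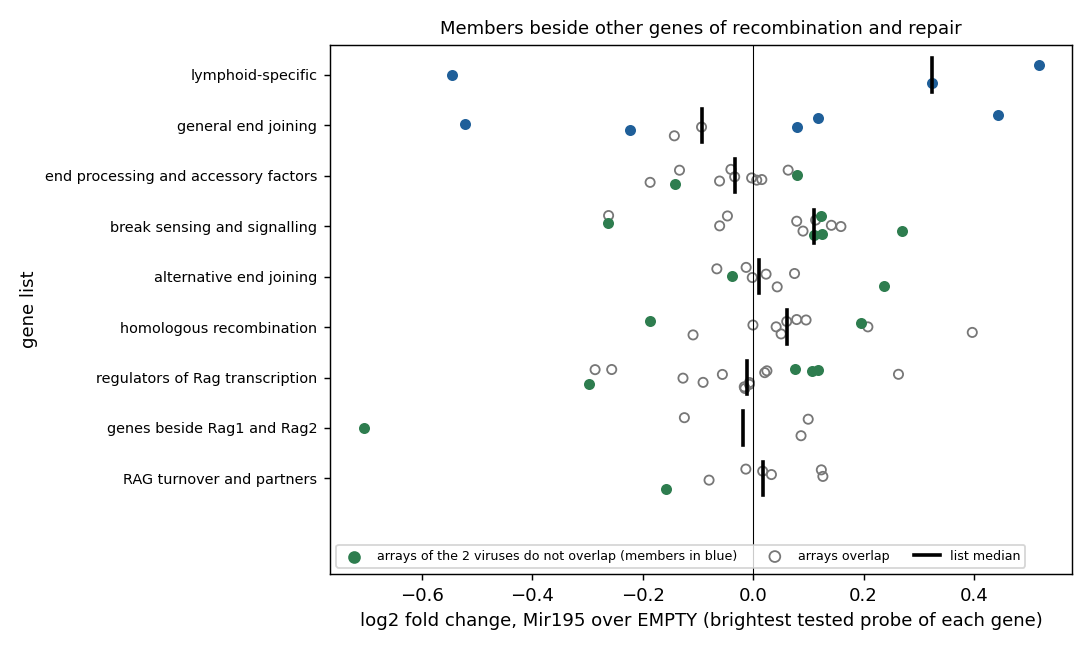
Each point is 1 gene by its brightest tested probe, with the log2 fold change of Mir195 over EMPTY on the horizontal axis and the lists on the vertical axis. Filled points are genes whose EMPTY and Mir195 arrays did not overlap, open points overlapped, and black bars are list medians. Rag1, Dntt, Xrcc5 and Dclre1c lay at 0.52, -0.54, -0.52 and 0.44, beyond all genes of the repair lists, which lay between -0.26 and 0.40. Prr5l, a gene beside Rag1 and Rag2, lay further out than these, at -0.71. The members were chosen with results of these arrays known.

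Known regulators of Rag transcription, each read on its brightest tested probe, had smaller log2 fold changes than Rag1, from -0.30 to 0.26. The upper end was Pax5, at -5.60 and -6.19 in EMPTY and -5.54 and -5.72 in Mir195, a low signal whose arrays overlapped. The paper reports a larger Pax5 rise from its microarrays and does not name the probe. Of 16 such genes, 4 did not overlap between the viruses, 3 higher and 1 lower, and the list's median log2 fold change was -0.01. The extremes among those 4 were Satb1, a chromatin organiser, at 4.21 and 4.22 in EMPTY and 4.29 and 4.36 in Mir195 (0.12, limma adjusted p = 0.884), and Tcf12, which encodes the E protein HEB, at 0.84 and 0.94 against 0.73 and 0.45 (-0.30, limma adjusted p = 0.714). Foxo1, whose protein activates both Rag genes, stood at 0.23 and -0.28 in EMPTY and at -0.56 and -0.06 in Mir195, so its arrays overlapped. The Ebf1 probe read 2.01 and 1.89 in EMPTY and 1.85 and 2.03 in Mir195. Whether that probe lies in the deleted part of the gene is not given in the sources used here, so it does not check the genotype. Foxo1, Ebf1 and Pax5 were named after their values were seen.

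The genes beside the recombinase on the chromosome had no common direction. Rag1 and Rag2 are neighbours on mouse chromosome 2, and Traf6, Prr5l, Commd9 and Iftap lie around them. Prr5l, a partner of the TORC2 kinase complex, was lower in both Mir195 arrays on both of its probes, at 1.74 and 1.32 in EMPTY against 0.88 and 0.77 in Mir195 on the brighter one. Its log2 fold changes were -0.71 (SE 0.18) and -0.67 (SE 0.17), both with limma adjusted p = 0.530. Traf6, a signalling adaptor, gave 0.10 on a probe whose arrays overlapped and 0.40 (limma adjusted p = 0.669) on another whose arrays did not. Commd9 (-0.12) and Iftap (0.09 and 0.13 on its probes, which the array names B230118H07Rik) overlapped between the viruses.

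Many genes shared the pattern of Rag1 over the 4 arrays. Of 1187 genes with a log2 fold change within 0.2 of that of Rag1, 374 had a Pearson correlation with it above 0.95, so a high correlation over 4 arrays singles out little. The 5 highest were Trav3d-3, a T cell receptor segment, A730090N16Rik, LOC100047896, LOC100044696 and LOC636687, the last 4 carrying only the array's older names.

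Some markers of other cells, mainly of the T lineage, also differed between the viruses, and their part in the members' values was not tested. T cells also use the recombinase, and of 13 T lineage markers, all tested, 12 were lower and 1 higher with Mir195. Of the 13, 8 were lower without overlap, where 14.7% of all genes were. Limma gave 7 of the 13 an unadjusted p under 0.05, where 8.34% of all tested probes had such a p, 2.09% as lower. The summed level of the T lineage markers, in multiples of the 75th percentile signal, was 57.9 and 63.3 in EMPTY and 57.6 and 53.8 in Mir195. Most of that sum came from 1 bright gene, Lck. Its log2 values overlapped, at 5.19 and 5.43 in EMPTY and 5.32 and 5.24 in Mir195. The T lineage transcription factor gene Bcl11b was above background in the EMPTY arrays alone. It passed the filter only through those arrays, so its lower direction was largely fixed in advance. Cd8b1, also lower, was above background on 3 of the 4 arrays and so passed through 1 virus alone. The counts of 12, 8 and 7 above include both genes, so they were in part set by the filter. Of 8 natural killer and innate lymphoid markers, 7 were lower and 3 of these did not overlap. That is 37.5% without overlap, where 37.7% of all genes had none in either direction and 14.7% as lower. The sums of these markers were 36.4 and 27.4 in EMPTY against 25.1 and 28.5 in Mir195. Of 12 early B and lymphoid progenitor markers, 10 were tested, of which 6 were higher and 4 lower, with sums of 117 and 122 against 126 and 118. Cd79a, 1 of those lower, was above background on 2 of the 4 arrays and so passed the filter through 1 virus alone. The largest change among the 10 was that of Cd79b, at -1.18 and -0.96 in EMPTY and -0.26 and 0.49 in Mir195 (1.18, limma adjusted p = 0.530). Of the 10, 3 were higher and 2 lower without overlap, where 23.1% and 14.7% of all genes were. Cd93 and Flt3 were the brightest genes in the sums of this list.

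OP9 stromal genes were tested for 6 of 9 markers, and all 6 were higher with Mir195. Only 1 (16.7%) did not overlap, below the 37.7% of all genes. The sum of the 6 was 6.52 and 6.88 in EMPTY, 6.03 in Mir195 replicate 1 and 11.1 in Mir195 replicate 2. The other 3 markers, Dcn, Lum and Vcam1, were not tested. Mir195 replicate 2 was also the highest array on both Rag1 probes. With that array left out, which leaves 1 Mir195 array, Rag1 was 0.35 and 0.67 on its probes. Of 7 proliferation genes, 4 were higher and 3 lower, with a median log2 fold change of 0.03. Myeloid markers were 5 higher and 4 lower of 9 tested. Of the mast cell and erythroid markers only 1 of 5 and 2 of 6 were tested, all of them lower. The mast cell gene, Cpa3, did not overlap (-0.65, limma adjusted p = 0.578). The erythroid genes, Epor and Hba-a1, both overlapped between the viruses. Epor was above background on 3 of the 4 arrays and so passed the filter through 1 virus alone. Its lower value came from Mir195 replicate 2, at -7.93 beside -3.26 in Mir195 replicate 1 and -3.35 and -3.25 in EMPTY.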

How the data were processed

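The members, lists and tests were chosen with earlier results of these data known. Per the labels and methods, total RNA from EMPTY and Mir195 Ebf1-/- Lin- cells was labelled with Cy3 and hybridised to Agilent Whole Mouse Genome 4x44K v2 arrays. The authors deposited scanner files with spot intensity and quality flags (other values) and a table of log2 values scaled to the 75th percentile. Agilent Feature Extraction is version 11.5.1.1 in the submitters' processing notes and 9.1.3.1 in the file headers. Here, log2 of the deposited processed intensity, already background-subtracted, minus each array's 75th percentile was averaged over the spots of a probe. Probes were tested if no spot was an outlier and, for 1 virus or both, all spots on the 2 arrays were flagged well above background. This left 23713 probes. limma 3.58.1 (lmFit and eBayes, R 4.3.3) compared Mir195 with EMPTY across all tested probes, two-sided, with Benjamini-Hochberg adjustment and a threshold of 0.05. The code was tested on simulated data. A gene's value was the mean of its probes, or its brightest probe in lists. Summed marker levels are sums of linear values over tested genes.

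Signal at the 75th percentile was 902 to 1127 on the 4 arrays, 21 to 65 spots per array were outliers and none was saturated. The small number of arrays limits the precision. The named genes were all members, the genes beside Rag1 and Rag2, and, of each list without a call, the largest rise and fall among genes whose arrays did not overlap. The alternatives were normexp background correction (offset 50), quantile and median scaling, scaling over detected probes, the authors' table, looser and stricter filters, a trended robust fit, a replicate block, the methods' t-test, other gene summaries and leaving out each array. The deposited table's columns correlated at r = 0.998 with the values used here, and its column medians were -4.45 to -4.29. Motif matches are exact matches of letters in RefSeq windows. No genome sequence was used here, and some genes of the lists are not reported here.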

Additional observations from a re-analysis of the deposited data

How the results depend on the processing

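No member probe was called under any alternative, and 209 of 210 fold changes of member probes kept their direction. The exception was Xrcc4, at -0.019 with median scaling, a setting that moved the median of all probes from 0.01 to -0.08, the lymphoid-specific median to 0.21 and the general one to -0.19. Much of the agreement in direction was fixed in advance. The filters, the trended robust fit and the replicate blocks cannot change a fold change. Leaving out 1 array cannot reverse a probe whose arrays did not overlap. The count of calls over all tested probes, 0 with 1978 at an unadjusted p under 0.05, was 3 with median scaling and 0 to 900 when 1 array was left out (900 without Mir195 replicate 1 and 3 without Mir195 replicate 2), and the methods' t-test gave 1132 unadjusted and 0 after Benjamini-Hochberg adjustment. The difference between the class medians, 0.40, was 0.29 to 0.52 when 1 array was left out, 0.55 without Dntt and 0.23 without Xrcc5 and Xrcc6. The cause of these shifts was not tested. Non-overlapping member probes numbered 11 in the authors' table and 12 with median scaling. With normexp, 3749 probes had an unadjusted p under 0.05 and 49.8% of probes did not overlap.

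With the replicate number as a block, limma called 5 probes and no member. The deviations of same-numbered arrays correlated at -0.10 and no label says that the numbers mark a shared litter or day. A crossed pairing, chosen after seeing the data, called 0 probes and no member. With 2 arrays per virus, the signal over background of the dim probes of Rag1 and Rag2 also limits what their values can show.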
